A study of Mus musculus with 36 samples.

Results

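The 10 genes described here, Lrrc15, Lrrc17, Fap, Postn, Tnc, Cthrc1, Thy1, Pdgfra, Antxr1 and Aebp1, are known from fibroblasts that have been activated by injury or by growth factors, and they were followed in mouse knee cartilage after DMM, in which surgical destabilization of the medial meniscus brings on osteoarthritis (OA) of the joint. All 10 genes had counts: 13 of the 30048 RefSeq transcripts in the count tables belong to them, and for each gene the transcript with the highest mean count over the 12 RNA libraries was used. The set was put together with the RNA results of these same libraries in view. The study itself had singled out Lrrc15 and Lrrc17 for their RNA at 4 weeks, and Lrrc15 for lower DNA methylation in that week. The RNA differences between limbs, and the methylation of Lrrc15, are therefore given as a description. Where calls of the fit across all transcripts are counted for that contrast, nothing is read from them.

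The mice were male C57BL/6J, 12 weeks old at surgery, and carried no genetic modification in the labels. The right knee had DMM and the unoperated left knee of the same animals was the control. Cartilage of the tibia and femur was microdissected at 4 and at 12 weeks after surgery, and tissue of 3 knees was pooled for each library. RNA-seq and reduced representation oxidative bisulfite sequencing (RRoxBS) each gave 3 control and 3 DMM libraries per time point, from different mice for RNA and for DNA. The contralateral knee carries whatever the surgery does to the whole animal or to its gait, so the comparison is between limbs and not with unoperated mice. Which control pool came from the same animals as which DMM pool is not given in the sources used here.

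Fibroblasts at rest keep connective tissue in order, and when tissue is injured TGF-β, PDGF and IL-11 push them towards a state in which they divide, contract and lay down matrix. LRRC15, a transmembrane protein with leucine-rich repeats, and FAP, a serine protease on the cell surface, are used as markers of that state in tumours and in wounded tissue. Periostin (Postn), tenascin C (Tnc), CTHRC1 and AEBP1 are secreted proteins of the injured matrix, and THY1, PDGFRA and ANTXR1 sit on the surface of mesenchymal cells. Several of these genes are also active in bone surfaces, perichondrium, tendon or cartilage itself, so that their name does not give the cell they came from.

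The genes lie apart from each other in the genome. In GRCm38, the transcript of Lrrc15 spans chr16:30269302-30283254 on the minus strand, that of Fap chr2:62500936-62574021 on the minus strand, that of Antxr1 chr6:87133853-87335775 on the minus strand and that of Tnc chr4:63959785-64047015 on the minus strand. The plus strand holds Thy1 at chr9:44043384-44048579, Postn at chr3:54361107-54391041, Cthrc1 at chr15:39076932-39087121 and Aebp1 at chr11:5861866-5872248. Lrrc17, at chr5:21543527-21575911, and Pdgfra, at chr5:75152251-75198206, are on the plus strand of the same chromosome, far from each other. The 3 further transcripts, 1 of Pdgfra and 2 of Postn, had nearly the same counts as the rows used, with log2 fold changes at 4 and 12 weeks of 1.11 and 0.46 for Pdgfra and of 1.96 and 0.53 for both of Postn, and were not used.

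The RNA libraries held 27706547 to 62737656 counts. Markers of chondrocytes were abundant in all of them, with a summed level of 10163 to 47458 counts-per-million (CPM). Replicates of a limb differed by far more than counting error, and a summed list of 12 skeletal muscle genes ranged from 95.7 to 22898 CPM over the libraries. At 4 weeks that muscle sum was 6131 to 22898 CPM in control and 564 to 3696 CPM in DMM cartilage.

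At 4 weeks after DMM, RNA of all 10 genes was on average higher in the operated limb, by 0.25 to 3.48 on the log2 scale, and the median log2 fold change was 1.43 against -0.02 for all genes tested. Lrrc15 had the largest difference, followed by Postn, Antxr1 and Lrrc17. In 8 of the 10 genes the lowest DMM library exceeded the highest control library, which was so for 10.8% of all genes tested, and the same 8 had a log2 fold change above 1, against 2.31% of all transcripts. The remaining genes, Tnc and Aebp1, overlapped between limbs.

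**Figure D1:**
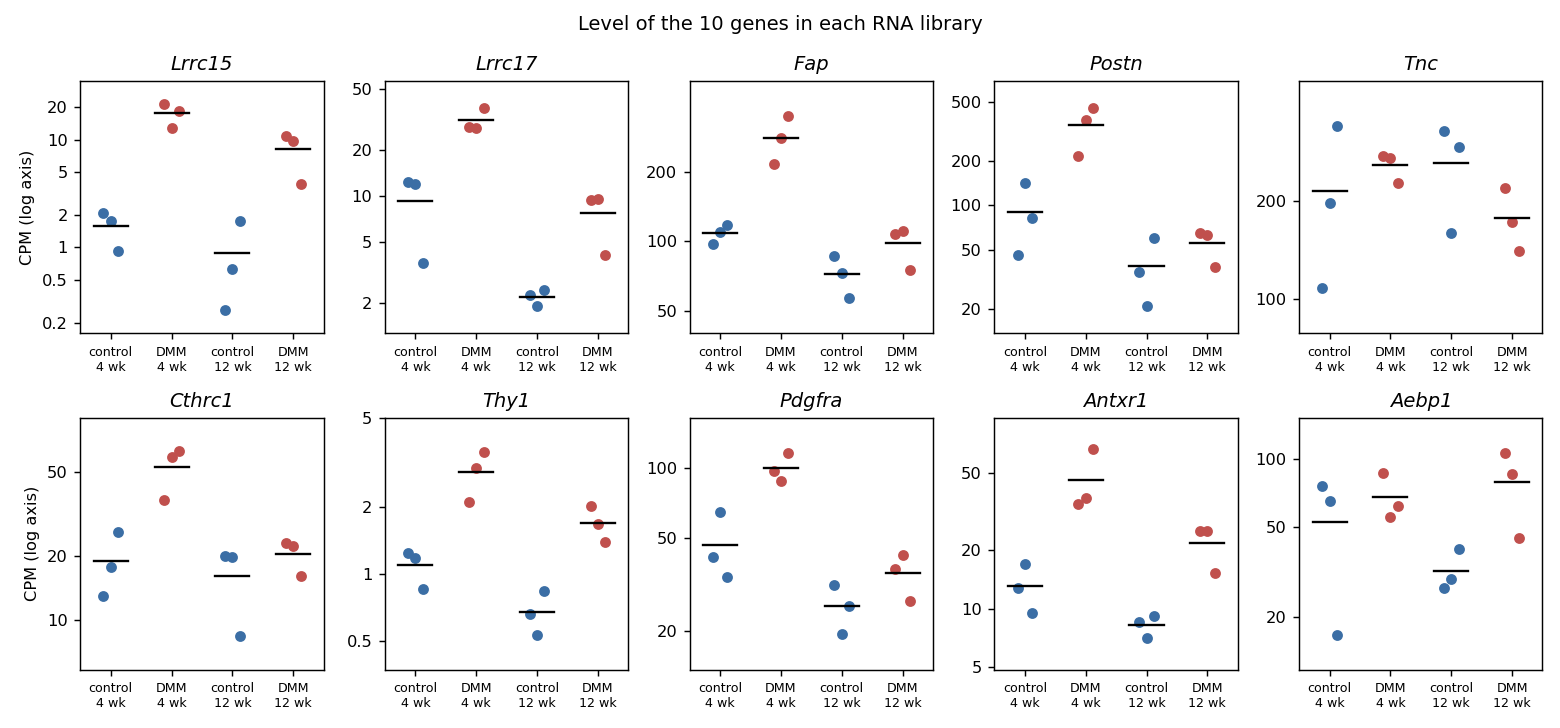
Level of each gene in counts-per-million (log axis) in the 12 RNA libraries, by limb (blue control, red DMM) and week, with 1 point per library and a bar at the group mean. At 4 weeks 8 genes have all 3 DMM points above all 3 control points, at 12 weeks 5 do, and Tnc and Aebp1 overlap at 4 weeks.

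Among the surface proteins, Lrrc15 was at 2.09, 1.75 and 0.931 CPM in the 4-week control libraries and at 21.6, 12.9 and 18.4 CPM in the DMM libraries. The lowest DMM library was thus well above the highest control, and the log2 fold change was 3.48 ± 0.36 (SE, n = 3 per limb). The control values rest on 89, 87 and 50 counts. Fap was already abundant in control cartilage, at 97.7, 110.3 and 118 CPM, and reached 217, 281 and 349 CPM after DMM. Its control libraries lay close together and all 3 DMM libraries were above them, with a log2 fold change of 1.37 ± 0.23.

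Thy1, the GPI-anchored CD90 antigen of fibroblasts and stem cells, was rare, at 1.24, 1.18 and 0.856 CPM in control and 2.1, 2.99 and 3.51 CPM in DMM cartilage (log2 fold change 1.38 ± 0.32). Pdgfra, the receptor for PDGF on mesenchymal cells, was at 41.7, 65.1 and 34.2 CPM in control and 97.4, 88.5 and 116 CPM in DMM cartilage. Neither gene overlapped between limbs, and the Pdgfra log2 fold change of 1.10 ± 0.26 was the smallest of the 8 genes without overlap. Antxr1, a collagen-binding receptor also known as an entry receptor for anthrax toxin, was at 12.8, 16.9 and 9.55 CPM in control cartilage. After DMM it was at 34.8, 37.3 and 66.0 CPM, with 1 DMM library standing above the other two and a log2 fold change of 1.81 ± 0.31.

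Of the secreted proteins, Postn was at 46.1, 141 and 81.8 CPM in control and 217, 379 and 458 CPM in DMM cartilage. The control libraries spread over a wider range than for Fap, but the highest stayed below the lowest DMM library, and the log2 fold change was 1.96 ± 0.44. Cthrc1, which is induced in injured vessels and in fibrosis, was at 13.0, 17.8 and 26.0 CPM in control and 36.9, 58.7 and 62.8 CPM in DMM cartilage (log2 fold change 1.47 ± 0.31). Lrrc17, a secreted protein with leucine-rich repeats that restrains osteoclast formation, was at 12.4, 12.0 and 3.61 CPM in control and 28.4, 27.9 and 37.6 CPM in DMM cartilage. The low control library, replicate 3, was also the lowest control for Aebp1, Lrrc15, Thy1, Pdgfra and Antxr1 and the highest for Fap, Tnc and Cthrc1, and the log2 fold change of Lrrc17 was 1.75 ± 0.42.

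Tnc and Aebp1 did not separate the limbs at 4 weeks. Tnc was at 108, 197 and 340.1 CPM in control and 274, 272 and 227 CPM in DMM cartilage, so that the control libraries lay on both sides of the DMM libraries (log2 fold change 0.25 ± 0.39). Aebp1, which encodes a collagen-binding protein of connective tissue, was at 75.9, 64.7 and 16.6 CPM in control and 86.1, 55.3 and 61.7 CPM in DMM cartilage. Replicates 1 and 2 of the controls were within the DMM range and only replicate 3 was far below it (log2 fold change 0.38 ± 0.48).

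At 12 weeks 9 of the 10 genes were on average higher in DMM cartilage, with a median log2 fold change of 0.92 against 0.02 for all genes tested. In 5 of them, Lrrc15, Lrrc17, Thy1, Antxr1 and Aebp1, the lowest DMM library exceeded the highest control library, against 9.87% of all genes tested, and these 5 had a log2 fold change above 1, against 2.97% of all transcripts. Tnc lay in the other direction, with a log2 fold change of -0.55 ± 0.29.

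Lrrc15 was at 0.261, 0.630 and 1.77 CPM in the 12-week control libraries and at 10.9, 9.68 and 3.91 CPM in the DMM libraries. The limbs were separate, but the control values rest on 11, 39 and 65 counts and the log2 fold change of 3.23 ± 0.71 had the largest error of the set. Lrrc17 was at 2.25, 1.91 and 2.42 CPM in control and 9.40, 9.61 and 4.09 CPM in DMM cartilage (log2 fold change 1.82 ± 0.34). Antxr1 was at 8.53, 7.08 and 9.24 CPM against 25, 25.2 and 15.3 CPM (1.41 ± 0.23). DMM replicate 3 was the lowest DMM library for all 3 genes.

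Aebp1, which overlapped at 4 weeks, was at 26.9, 29.3 and 39.6 CPM in control and 106, 85.5 and 44.4 CPM in DMM cartilage at 12 weeks. All 3 DMM libraries were above the controls, although the lowest of them exceeded the highest control only narrowly, and the log2 fold change was 1.31 ± 0.32. Thy1 kept a small and regular difference, at 0.664, 0.533 and 0.843 CPM in control and 2.02, 1.68 and 1.39 CPM in DMM cartilage (1.34 ± 0.33).

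Fap, Postn, Cthrc1 and Pdgfra, all separate at 4 weeks, overlapped between limbs at 12 weeks. Fap was at 86.1, 72.9 and 57.0 CPM in control and 108, 111 and 75.4 CPM in DMM cartilage, where DMM replicate 3 fell inside the control range (log2 fold change 0.45 ± 0.20). Postn was at 35.2, 20.8 and 60.1 CPM against 65.0, 62.9 and 38.6 CPM (0.53 ± 0.39). Pdgfra was at 31.5, 19.3 and 25.6 CPM against 36.8, 42.2 and 26.9 CPM (0.48 ± 0.23). For these 3 genes it was again DMM replicate 3 that reached into the control range. Cthrc1 was at 20, 19.9 and 8.40 CPM in control and 23.3, 22.4 and 16.1 CPM in DMM cartilage (0.36 ± 0.33). Tnc was at 329, 159.5 and 294 CPM in control and 219.7, 172 and 140.4 CPM in DMM cartilage, with both limbs overlapping.

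**Figure D2:**
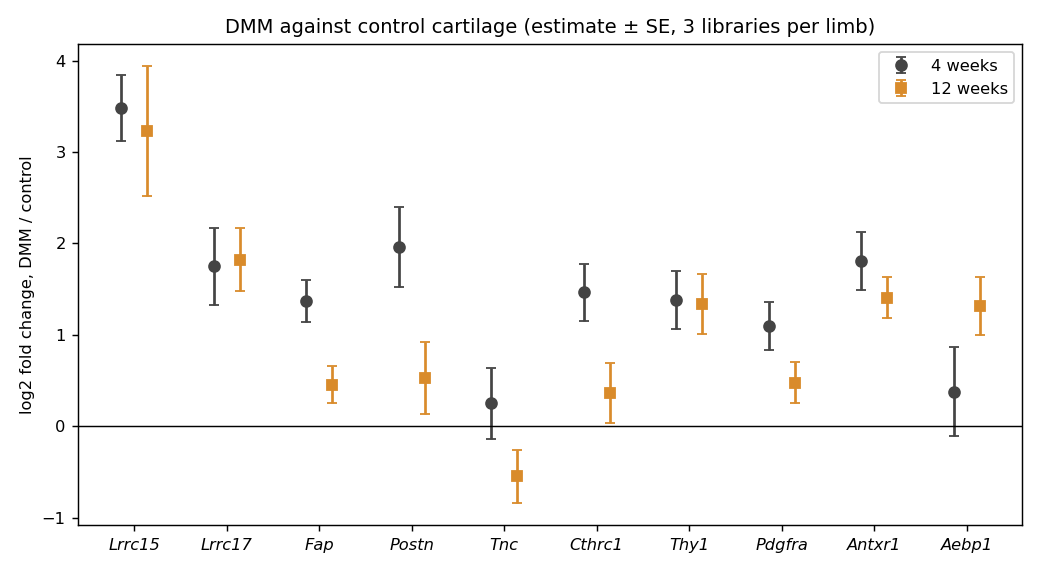
Log2 fold change of DMM against control cartilage for each gene at 4 weeks (circles) and 12 weeks (squares), with SE from 3 libraries per limb. Lrrc15 lies at 3.48 and 3.23, while Postn, Cthrc1 and Fap lie above 1 at 4 weeks and between 0.36 and 0.53 at 12 weeks.

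In the fit across all transcripts (edgeR, quasi-likelihood test) 1 of the 10 genes, Lrrc15 at 4 weeks, was below an adjusted p of 0.05, against 0.0757% of all transcripts, and none was at 12 weeks, against 0.00476%. DESeq2, the tool the study names, put 8 of the 10 genes below 0.05 at 4 weeks and 5 at 12 weeks, against 3.44% and 4.24% of all transcripts, or 1.32% and 2.7% for calls higher in DMM, and these were the genes without overlap between limbs in each week. As the set was chosen on this contrast, nothing is read from these shares. Without control replicate 2 or any 1 of the DMM libraries the edgeR call of Lrrc15 at 4 weeks was lost, and without control replicate 3 edgeR called 4 genes, Lrrc15, Lrrc17, Fap and Cthrc1.

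Other cell type markers moved with the same limbs. The sum of 8 markers of synovial and connective tissue fibroblasts was 176 to 455 CPM in control and 631 to 1098 CPM in DMM cartilage at 4 weeks, and 158 to 198 CPM against 248 to 387 CPM at 12 weeks. The sum of 6 tendon and ligament markers was 225 to 696 CPM against 959 to 1328 CPM at 4 weeks and 247 to 456 CPM against 724 to 1438 CPM at 12 weeks. The sum of 8 osteoblast and periosteum markers was also higher in every DMM library, at 7881 to 10771 CPM against 13753 to 16272 CPM at 4 weeks and at 6138 to 9067 CPM against 10542 to 13685 CPM at 12 weeks. None of these markers was below 1 CPM in every library. By group means 7 of 8 fibroblast and 6 of 8 osteoblast markers were higher in DMM cartilage at 4 weeks, and 6 of 8 and 7 of 8 at 12 weeks. All 6 tendon and ligament markers were higher in both weeks. In bulk tissue, more cells of a type in the dissected piece and more RNA per cell cannot be told apart, and the part of these cell types in the levels of the 10 genes was not tested. The sums of smooth muscle, endothelial, erythroid, neutrophil, macrophage, superficial zone and chondrocyte markers overlapped between limbs in both weeks. Some of these lists were more one-sided by single markers. By group means all 5 macrophage and 5 of 6 smooth muscle markers were higher in DMM cartilage at 4 weeks. In that week 3 of 10 chondrocyte, 2 of 5 superficial zone, 3 of 6 endothelial, 3 of 5 neutrophil and 2 of 4 erythroid markers were higher. At 12 weeks all 10 chondrocyte and all 5 superficial zone markers were higher, with 3 of 6 smooth muscle and 1 of 6 endothelial markers. None of the macrophage, neutrophil or erythroid markers was higher at 12 weeks. The chondrocyte sum at 4 weeks was 18314 to 47458 CPM in control and 15064 to 21611 CPM in DMM cartilage. The macrophage sum was 335 to 596 CPM in control and 550.2 to 1011 CPM in DMM cartilage at 4 weeks. The adipocyte sum was higher in every DMM library at 4 weeks and overlapped at 12.

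Compared per kilobase of transcript, the levels of the 10 genes ran over 2 orders of magnitude in 4-week control cartilage, from 40.2 ± 3.75 CPM per kb (SD, n = 3) for Fap to 0.299 ± 0.112 CPM per kb for Lrrc15. Fap, Tnc, Postn, Cthrc1, Aebp1, Pdgfra, Lrrc17 and Antxr1 followed each other in this order with neighbours that overlapped, whereas Thy1 and Lrrc15 each lay below the gene before them in every library. In 4-week DMM cartilage Postn, at 109 ± 38.2 CPM per kb, and Fap, at 104 ± 24.3 CPM per kb, overlapped at the top and were above all other members. Lrrc15, at 3.32 ± 0.833 CPM per kb, moved above Thy1, at 1.65 ± 0.411 CPM per kb, and remained far below Fap. At 12 weeks Tnc, at 36.8 ± 12.6 CPM per kb, and Fap led in control cartilage. Fap, Tnc, Aebp1, Cthrc1 and Postn overlapped from neighbour to neighbour in DMM cartilage, at 36.3 to 17.3 CPM per kb. Lrrc15 was the lowest in control cartilage, overlapping Thy1 there, and the lowest but one in DMM cartilage.

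The change between 4 and 12 weeks within a limb was taken from a fit of all 12 libraries. The 4-week libraries of both limbs also entered the contrast on which the genes were known to differ, low in control and high in DMM, so neither comparison is independent of the choice of genes. In control cartilage 9 of the 10 genes were on average lower at 12 weeks, and Lrrc17 was past the threshold (edgeR, quasi-likelihood test, log2 fold change -2.09 ± 0.43, adjusted p = 0.0208), against 3.24% of all transcripts called lower and 5.69% in either direction. Every 12-week control library of Lrrc17 was below every 4-week one, from 3.61 to 12.4 CPM down to 1.91 to 2.42 CPM. The call was lost when any 1 control library other than 4-week replicate 3 was left out. Pdgfra (-0.88 ± 0.26) and Postn (-1.22 ± 0.45) passed in DESeq2, at adjusted p = 0.015 and 0.0425, and not in edgeR, at 0.0645 and 0.12, so that DESeq2 called 3 genes, all lower, against 7.49% of all transcripts lower and 13.9% in either direction.

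In DMM cartilage the 4-week libraries are those in which the genes were known to be high, so the values are a description and nothing is read from the calls. The log2 fold change of 12 against 4 weeks was -2.66 ± 0.47 for Postn, -2.03 ± 0.42 for Lrrc17, -1.53 ± 0.23 for Fap, -1.51 ± 0.26 for Pdgfra, -1.36 ± 0.35 for Cthrc1 and -1.08 ± 0.29 for Antxr1, and edgeR called these 6 of the 10 genes lower, against 10.1% of all transcripts called lower and 23.6% called in either direction. DESeq2 called 7 genes lower, Thy1 in addition, against 14.1% of all transcripts lower and 29.1% in either direction. In edgeR Lrrc15 was at -1.11 ± 0.53, Thy1 at -0.75 ± 0.30, Tnc at -0.54 ± 0.37 and Aebp1 at 0.22 ± 0.45, and none of these was called. The calls of Cthrc1 and Antxr1 were lost without DMM replicate 3 of either week, and that of Cthrc1 also without DMM replicate 2 of 4 weeks. Marker sums also separated the DMM libraries of the weeks. From 4 to 12 weeks the fibroblast sum went from 631 to 1098 CPM down to 248 to 387 CPM, the macrophage sum from 550.2 to 1011 CPM down to 297 to 416 CPM, and the osteoblast sum from 13753 to 16272 CPM down to 10542 to 13685 CPM. The endothelial sum (140.1 to 178 against 79.6 to 103 CPM) and the adipocyte sum (158 to 252 against 80.9 to 116 CPM) were lower too. The superficial zone sum was higher, at 8171 to 11300 against 13497 to 22865 CPM. So was the neutrophil sum, at 11157 to 16857 against 17133 to 27091 CPM. Their part in the lower levels of the member genes was not tested. Time after surgery, age of the mice and the set of libraries cannot be told apart in either limb.

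Whether the difference between limbs itself differed between the weeks was fitted as an interaction, which uses the contrast on which the genes were chosen and so is not independent of the choice. No gene passed: the lowest adjusted p among the 10 was 0.405 in edgeR and 0.262 in DESeq2, with 0 and 16 transcripts called among all tested, the latter 0.0613%. Fap (-0.93 ± 0.31), Cthrc1 (-1.13 ± 0.48) and Postn (-1.45 ± 0.63) had an unadjusted p below 0.05 for a smaller difference at 12 weeks, as 2656 of all 21618 transcripts had in either direction, whereas Lrrc15 (-0.25 ± 0.79), Thy1 (-0.06 ± 0.44) and Lrrc17 (0.07 ± 0.58) had estimates smaller than their errors. These errors leave room for a sizeable difference between weeks in either direction.

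Within groups, the 10 genes did not all vary alike from library to library. Over the 45 pairs of genes, deviations from the group means were correlated across the 12 libraries. The correlations ran from -0.58 to 0.92 with a median of 0.30. These libraries differ in depth and in the sums of cell type markers, and the part of either in the correlations was not tested. Lrrc17 and Aebp1 (0.92), Fap and Cthrc1 (0.85) and Pdgfra and Antxr1 (0.82) varied most alike, and Lrrc15 varied with Aebp1 (0.71) and against Cthrc1 (-0.58).

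Of 13555 other genes with a mean of at least 1 CPM, those with a profile most like Lrrc15 over the 12 libraries (Pearson correlation of log2 CPM, group differences included) were Ptx4 (0.953), C1qtnf3 (0.935), Thy1 (0.931), the non-coding RNA Gm11747 (0.925) and Antxr1 (0.92). C1qtnf3, which encodes a secreted C1q and TNF related protein of cartilage and growth plate, was at 7.45, 5.90 and 1.41 CPM in 4-week control and 23.1, 42.5 and 62.0 CPM in 4-week DMM cartilage. At 12 weeks it was at 0.427, 0.646 and 2.64 CPM against 12.1, 8.65 and 3.98 CPM, so that both limbs were separate at both weeks. Among the other members Lrrc17 reached 0.838, Aebp1 0.753, Pdgfra 0.709, Postn 0.703, Fap 0.701, Cthrc1 0.587 and Tnc -0.064.

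To place the 10 genes among others of the same programme, a list of 63 further genes of fibroblast activation was followed, of which 62 matched a count row and were tested. The list was chosen with earlier results of these data known, so its counts and calls are a description and nothing is read from them. At 4 weeks 51 of the 62 had a positive log2 fold change, with a median of 0.42 against -0.02 for all genes, and at 12 weeks 54, with a median of 0.60 against 0.02. In 23 genes at 4 weeks and 27 at 12 weeks all DMM libraries exceeded all controls, against 10.8% and 9.87% of all genes. In 3 genes at 4 weeks (Pdgfb, Ccn2 and Tpm2) and 1 at 12 weeks (Dpp4) every DMM library was below, against 10.3% and 8.42%. None passed the adjusted p in edgeR, with 24 and 30 genes at an unadjusted p below 0.05, as had 2891 of 21140 and 3430 of 21010 transcripts in all. In DESeq2 10 genes rose and 1 fell at 4 weeks and 19 rose at 12 weeks, with 7 genes called in both weeks, against 1.32% and 2.7% of all transcripts higher in DMM and 3.44% and 4.24% in either direction.

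**Figure D3:**
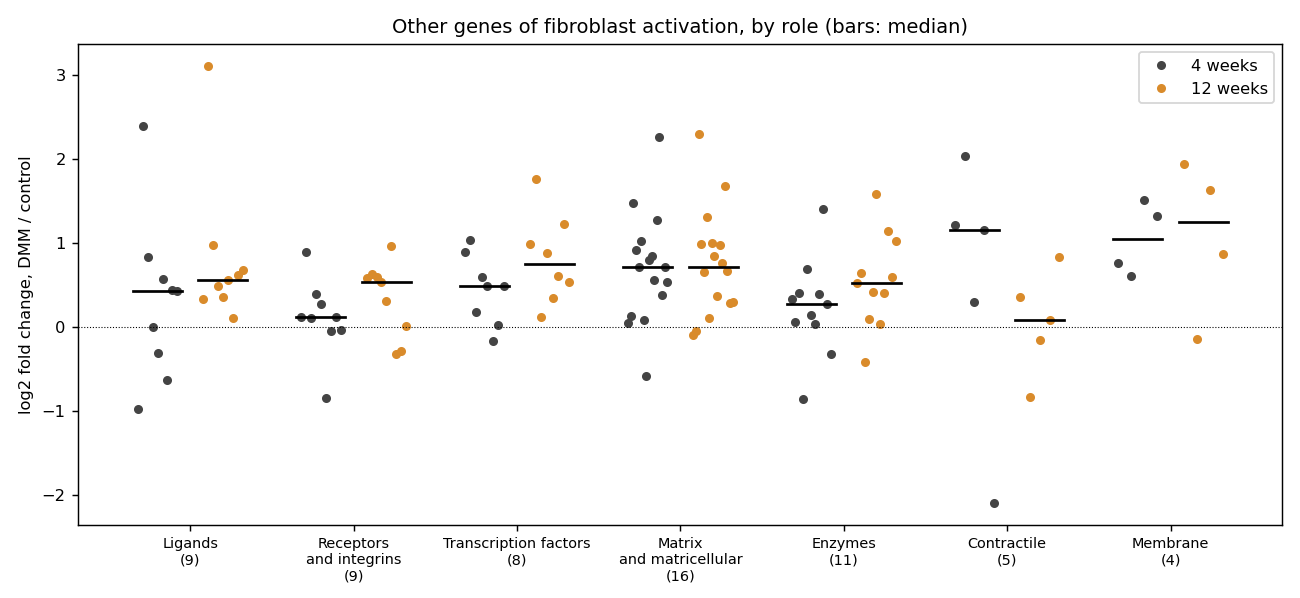
Log2 fold change of DMM against control cartilage for the 62 tested genes of the fibroblast activation list, by role, at 4 weeks (dark) and 12 weeks (orange), with 1 point per gene and a bar at the median. Most points lie above 0, Il11 leads the ligands at 2.40 and 3.11, and the contractile genes have a median of 1.16 at 4 weeks and 0.08 at 12 weeks.

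Among the ligands, Il11, a cytokine that drives fibroblasts to make matrix, was at 0.773, 0.381 and 0.354 CPM in control and 2.97, 2.02 and 2.93 CPM in DMM cartilage at 4 weeks. At 12 weeks it was at 0.664, 1.97 and 0.897 CPM against 9.21, 11.3 and 10.3 CPM, and DESeq2 called it in both weeks (log2 fold change 2.40 ± 0.40 and 3.11 ± 0.39 in edgeR, where its adjusted p was 0.18 and 0.0643). The TGF-β ligands and their receptors were not among the DESeq2 calls at 4 weeks. At 12 weeks DESeq2 called Tgfb2 (0.63 ± 0.16 in edgeR, where its adjusted p was 0.211) and Inhba, which encodes a subunit of activin, a ligand of the same family (0.98 ± 0.20, adjusted p 0.17 in edgeR), both higher. Of the 9 receptors and integrins 1 was called higher at 4 weeks (Ddr2, a collagen receptor) and 2 at 12 weeks (Itgb5 and Il11ra1) in DESeq2, against 1.32% and 2.7% of all transcripts, which are also the shares to set beside the transcription factors. Tgfb2, Inhba, Col1a1, Col1a2 and the list genes given without values were singled out after their values were seen. None of the 8 transcription factors was called at 4 weeks, and 2 rose at 12 weeks, Prrx1 and Prrx2, of which Prrx2, a homeobox factor of limb mesenchyme, had a log2 fold change of 1.76 ± 0.38.

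Of the matrix genes DESeq2 called 4 of 16 at 4 weeks and 7 of 16 at 12 weeks, all higher, against 1.32% and 2.7% of all transcripts, and edgeR called none. Comp, called at 12 weeks, is also among the chondrocyte markers, and Scx, Dpp4, Acta2 and Cnn1 of the activation list are on cell type marker lists as well. The part of those cell types in the values of these genes was not tested. In edgeR the lowest adjusted p on the whole list was 0.18 at 4 weeks and 0.0643 at 12 weeks, so that every call named for this list is one of DESeq2 and was not made by edgeR, from which the log2 fold changes are taken. Lum, a small proteoglycan that binds collagen fibrils, was at 710.3, 787 and 368 CPM in control and 2251, 2846 and 3880 CPM in DMM cartilage at 4 weeks. At 12 weeks it was at 289, 313 and 307 CPM against 1035, 1258 and 599.6 CPM. It was called by DESeq2 in both weeks, with log2 fold changes of 2.27 ± 0.38 and 1.68 ± 0.27. Col3a1, the collagen of soft and healing tissue, was called at 12 weeks (2.30 ± 0.41) and not at 4 weeks (1.48 ± 0.66), where the control libraries spread from 205 to 1731 CPM. Col6a3 (1.02 ± 0.29 and 1.31 ± 0.26) and Fstl1 (1.27 ± 0.31 and 0.77 ± 0.22) were called in both weeks. Col1a1 and Col1a2, the chains of type I collagen, were at 0.05 ± 0.50 and 0.14 ± 0.43 at 4 weeks and were called in neither week.

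Of the 11 enzymes DESeq2 called 1 higher at 4 weeks and 2 at 12 weeks, against 1.32% and 2.7% of all transcripts. Mmp2, a gelatinase of connective tissue, was called in both weeks (1.41 ± 0.31 and 1.15 ± 0.26), and Loxl2 at 12 weeks. Of the 4 genes listed as membrane proteins DESeq2 called 1 higher at 4 weeks and 3 at 12 weeks, against the same shares. S100a4, which marks fibroblasts though it lies mostly inside the cell, was called in both weeks (1.32 ± 0.35 and 0.87 ± 0.15). Pdpn, of lymphatic vessels and activated fibroblasts, was called at 12 weeks (1.64 ± 0.20), as was Cd248. The contractile genes were called in unlike directions by DESeq2 at 4 weeks and by edgeR not at all: Acta2 (1.22 ± 0.31) and Tagln (1.16 ± 0.31), which mark myofibroblasts and smooth muscle, were higher (edgeR adjusted p = 0.252 for both), while Tpm2 (-2.09 ± 0.62, edgeR adjusted p = 0.271), which skeletal muscle also makes in quantity, was lower. Tpm2 was at 941, 271 and 195 CPM in the 4-week control libraries, whose summed skeletal muscle markers were 22898, 7106 and 6131 CPM, and at 152, 115 and 61.6 CPM in the DMM libraries, with muscle sums of 3696, 1684 and 564 CPM. The part of muscle RNA in it was not tested. At 12 weeks Acta2 was at 0.37 ± 0.63 and Tagln at 0.08 ± 0.84, and DESeq2 called neither.

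RRoxBS reads cytosines in CpG-rich fragments cut by MspI. The oxidised (oxBS) libraries give 5-methylcytosine (5mC), the mark that is often sparse at active starts of genes, and the difference to the mock-oxidised (BS) libraries gives 5-hydroxymethylcytosine (5hmC), its oxidation product. Within the 10 genes and 5 kb on either side, 425 of 1444973 cytosines at 4 weeks and 404 of 1273121 at 12 weeks had at least 10 reads in all 6 oxBS libraries. All 434 different positions fall on a CG in GRCm38.p6. They were unevenly spread, from 4 cytosines in Postn to 112 at 4 weeks in Antxr1, and a gene's mean depends on which of its cytosines are covered. In Antxr1, Aebp1 and Lrrc15, 63, 33 and 31 of the 4-week cytosines lay within 1 kb of the transcript start, whereas Lrrc17, Tnc, Thy1, Fap and Postn had none there. The covered cytosines of Lrrc17 all lie within Fbxl13, 15 of 19 of those of Tnc at 4 weeks and 8 of 12 at 12 weeks within another annotated gene, 18 of 112 and 20 of 110 of those of Antxr1 likewise, and 15 of those of Aebp1 within Pold2, so those values do not belong to one gene alone.

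No member cytosine was called at 4 weeks, with a call set at a difference of 25 percentage points and q below 0.05 (likelihood ratio test on pooled reads, Benjamini-Hochberg over all cytosines), against 0.000554% of all cytosines, or 0.000346% for those lower in DMM. These limits called 8 of all 1444973 cytosines at 4 weeks. The study states the same limits and reports many more differential 5mCs in that week, with Lrrc15 hypomethylated. Why the numbers differ was not tested, and the Lrrc15 region of the study was not placed among the cytosines covered here. At 12 weeks 6 member cytosines were called, 5 lower and 1 higher in DMM, against 0.227% of all cytosines, or 0.2% for those lower. The windows below hold these 6 cytosines, the largest 4-week difference, and the Lrrc15 start, and they are shown because they carry the differences described next. Each is read 5′ to 3′ on the strand of its gene from the RefSeq assembly GRCm38.p6, with the tested CpGs in capitals.
Lrrc15, 30 bases of the non-coding part of exon 1, chr16:30283204-30283233, minus strand: cCGgtcctcCGcctcctctcctCGcCGcct
Antxr1, 73 bases of intron 17, chr6:87143923-87143995, minus strand: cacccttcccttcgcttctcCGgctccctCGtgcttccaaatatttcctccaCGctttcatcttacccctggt
Aebp1, 41 bases upstream of the start, chr11:5860503-5860543, plus strand: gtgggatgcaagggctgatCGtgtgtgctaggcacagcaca
Aebp1, 204 bases of coding exon 18, chr11:5870167-5870370, plus strand: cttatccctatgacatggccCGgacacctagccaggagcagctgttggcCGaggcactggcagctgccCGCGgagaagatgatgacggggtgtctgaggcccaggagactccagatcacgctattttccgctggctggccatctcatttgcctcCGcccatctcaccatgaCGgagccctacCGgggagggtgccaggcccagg
Thy1, 41 bases of intron 3, chr9:44047296-44047336, plus strand: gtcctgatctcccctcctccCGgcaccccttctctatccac

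In Antxr1 the called cytosines are chr6 positions 87143943 and 87143975, both on the minus strand, far inside the gene. At 12 weeks 87143943 had 55.7%, 25.8% and 65.0% 5mC in the control libraries and 15.9%, 20% and 19.1% in the DMM libraries, at 31 to 63 reads. Its neighbour 87143975 had 55.7%, 36.7% and 61.5% against 23.3%, 29.4% and 19.1%. The limbs did not overlap at either cytosine, with pooled differences of -33.6 points (q = 2.87e-05) and -29.7 points (q = 0.000613), and control replicate 2 was the low one of the controls at both. At 4 weeks the same cytosines differed by -9.61 and -12.5 points and overlapped between limbs.

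In Aebp1 the cytosine at chr11 position 5860523, at -1343 bases from the start, had 62.7%, 47.2% and 53.7% 5mC in control and 29.3%, 13.5% and 23.2% in DMM cartilage at 12 weeks, a difference of -31.1 points (q = 0.000107). At 4 weeks the same cytosine was at 43.3%, 19.1% and 31.2% against 29.9%, 16.1% and 29.3%, with no separation. In exon 18, position 5870187 was at 53.2%, 45.5% and 76.9% in control and 26.4%, 40.9% and 20.5% in DMM cartilage (-31.0 points, q = 0.00253). Position 5870237 was lower by 26.3 points (q = 0.0139), with limbs that overlapped. The largest 4-week difference of all member cytosines was in the same exon, at position 5870350, with 54.5%, 26.6% and 37.8% in control and 15.0%, 12.5% and 20% in DMM cartilage. It did not pass, at -17.8 points (q = 0.0809).

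The Thy1 cytosine that was higher in DMM, chr9 position 44047316 in intron 3, had 25%, 9.09% and 0.0% 5mC in control and 38.1%, 38.9% and 48.4% in DMM cartilage at 12 weeks (30.6 points, q = 0.0174). It rests on 11 to 31 reads per library, the thinnest coverage of the 6, and was not covered by 10 reads in every library at 4 weeks. The cytosine on the other strand of the same CpG was also tested at 12 weeks and was not called. The test pools reads and takes no account of the spread between libraries. With a correction for that spread 0 of the 6 calls remained, and at a difference of 20 points 15 were called.

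At 12 weeks control replicate 2 and DMM replicate 1 stood apart from the others by the style of their titles and by their pooled oxBS level, 25.1% and 24.8% against 29.9% to 32.0% in the other oxBS libraries. That level is over all reads and the cytosines each library covered, and as a mean over the cytosines covered in all 6 libraries these were at 29.7% and 28.8%, against 29.0% to 30.3% in the others. Without both, 7 member cytosines of 456 were called, against 0.102% of all, and the 5 lower cytosines above differed by -27.8 to -39.9 points. Between these 2 libraries alone the same 5 cytosines differed by -9.93 to -19.0 points. The Thy1 cytosine differed by 31.9 points without them and by 29.0 points between them.

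Averaged over its covered cytosines, 6 of the 9 genes with at least 5 cytosines had less 5mC in every DMM library than in every control library at 12 weeks, against 26.6% of all protein-coding genes, and none had more, against 3.86%. The median difference of the 9 genes was -3.65 points, and that of all genes -0.41 points. The mean over all cytosines covered in every oxBS library of 12 weeks was itself lower in every DMM library, at 28.8% to 29.5% against 29.7% to 30.3% in control. With 3 libraries per limb an exact permutation test cannot give a p below 0.1, so none of these differences can pass 0.05.

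**Figure D4:**
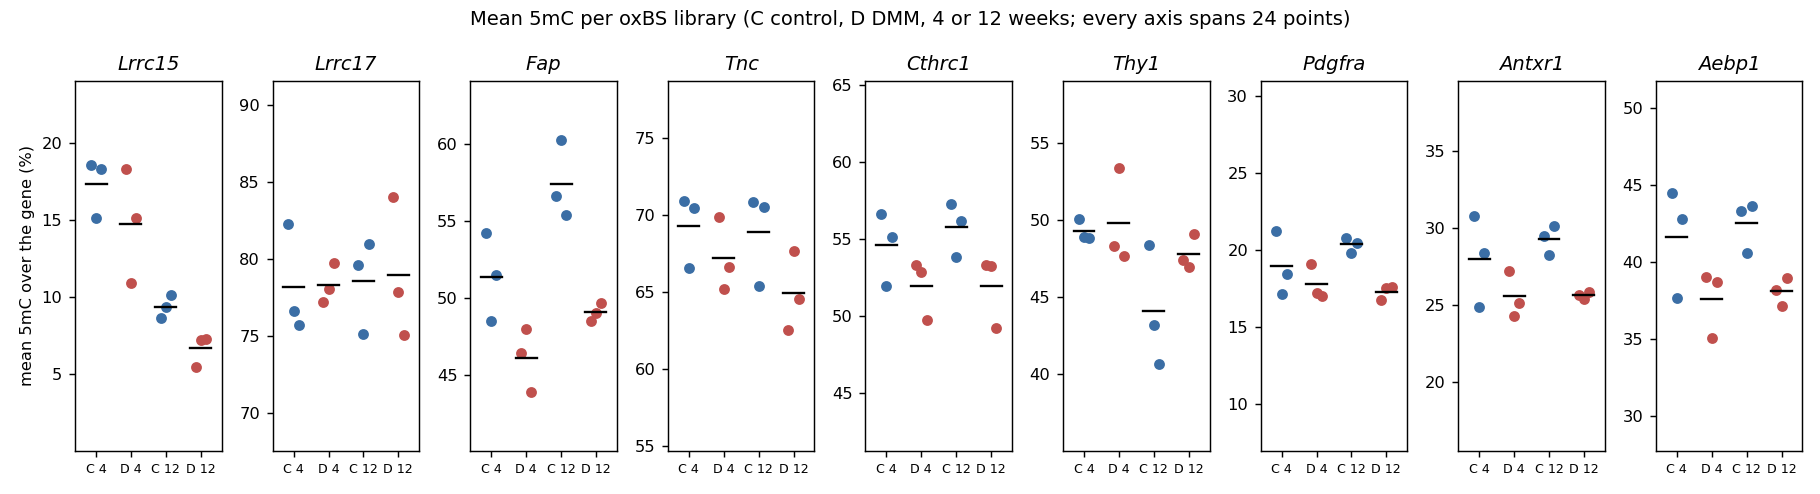
Mean 5mC over the covered cytosines of each gene and 5 kb around it, in percent, in every oxBS library, by limb (blue control, red DMM) and week, for the 9 genes with at least 5 cytosines, with a bar at the group mean and axes of equal span. At 12 weeks the DMM points of Lrrc15, Fap, Cthrc1, Pdgfra, Antxr1 and Aebp1 all lie below the control points, and those of Thy1 do not.

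Fap had the largest difference in both weeks. At 4 weeks its 19 cytosines averaged 54.2%, 48.5% and 51.5% 5mC in control and 46.4%, 48.0% and 43.9% in DMM cartilage, and at 12 weeks 56.7%, 60.3% and 55.4% against 48.5%, 49.1% and 49.7%. The limbs were separate in both weeks, by -5.29 and -8.35 points (exact permutation p = 0.1, two-sided, in both), and Fap was the only member separate at 4 weeks, against 6.36% of all genes. With reads pooled over its cytosines the difference of Fap at 4 weeks was -5.13 points and the limbs overlapped. Antxr1 averaged 29.4%, 28.3% and 30.1% in control and 25.6%, 25.4% and 25.9% in DMM cartilage at 12 weeks (-3.65 points). Pdgfra, with 94 cytosines, was at 20.8%, 19.8% and 20.5% against 16.7%, 17.5% and 17.6% (-3.09 points). In both genes the DMM libraries differed among themselves by less than 1 point. Aebp1 differed by -4.40 points and Cthrc1 by -3.83 points, also without overlap.

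Tnc (-4.01 points) and Lrrc17 (0.40 points) overlapped between limbs at 12 weeks, and Thy1 was on average higher by 3.72 points, with overlap. Lrrc17 was the most methylated of the genes, at 75.1% to 84.1% in all 12-week libraries, in cytosines that begin 12257 bases inside the gene. Without control replicate 2 and DMM replicate 1, 8 of the 9 genes were lower in every DMM library at 12 weeks, against 41.5% of all genes in that comparison of 2 against 2, and none was higher, against 9.57%. At 4 weeks leaving out control replicate 2, which had the lowest mean 5mC of the controls in 7 of the 9 genes, raised the number of separate genes from 1 to 5.

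Lrrc15 averaged 18.6%, 15.1% and 18.3% 5mC in control and 18.3%, 10.9% and 15.1% in DMM cartilage over 44 cytosines at 4 weeks, with overlapping limbs and a difference of -2.56 points. At 12 weeks it averaged 8.63%, 9.39% and 10.2% against 5.50%, 7.24% and 7.32% over 35 cytosines, with separate limbs and a difference of -2.71 points. The lower level at 12 weeks goes with the loss of well methylated intron cytosines from coverage, and weeks are not compared. Of its 44 cytosines at 4 weeks the largest differences were in intron 1, -17.7 points at chr16 position 30278639, 4615 bases into the gene, and 16.1 points at position 30278450, at 11 to 37 reads.

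**Figure D5:**
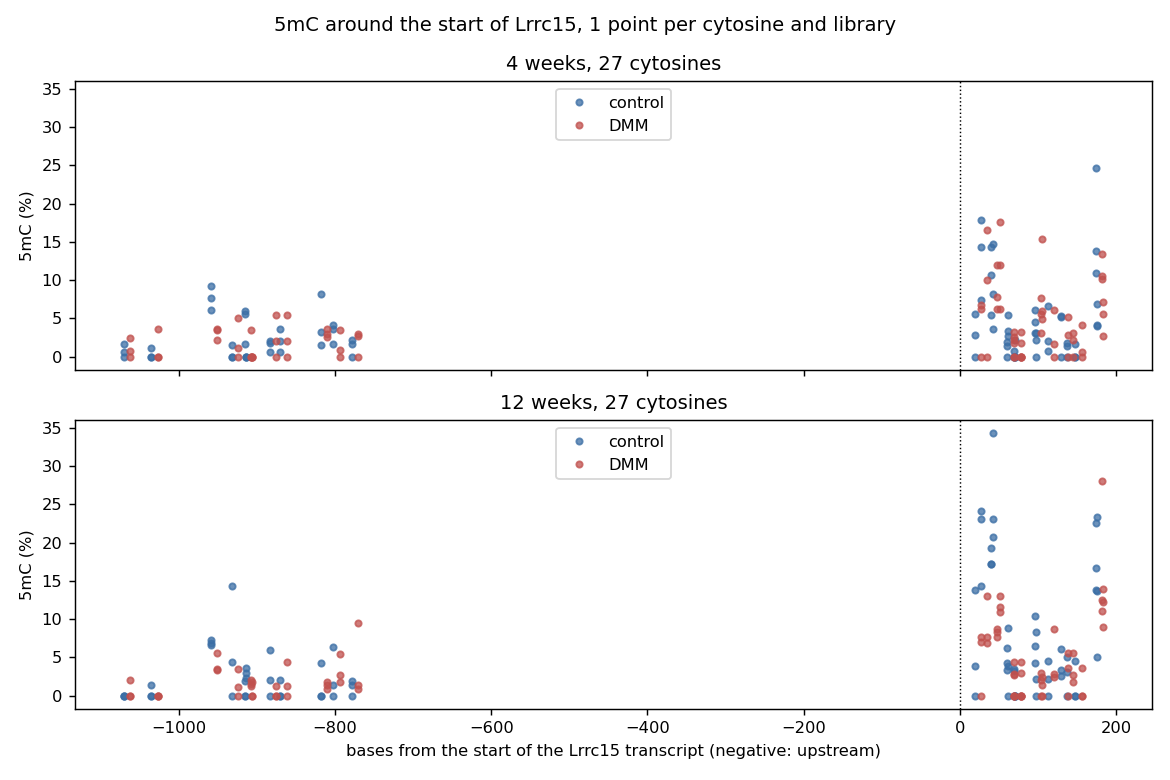
5mC in percent of each covered cytosine from -1066 to 180 bases around the start of the Lrrc15 transcript, against its distance from the start in bases, with 1 point per library (blue control, red DMM), at 4 weeks (top) and 12 weeks (bottom). The 11 upstream cytosines stay below 15% in both limbs, and just after the start the control points reach 34.3% at 12 weeks while the DMM points of the same cytosines stay at or below 13.0%.

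Upstream of its start, from -1066 to -774 bases, Lrrc15 was sparsely methylated in both limbs and both weeks, at 14.3% or less in every library. From 23 to 180 bases after the start levels were more mixed and reached 34.3% in 12-week control replicate 2. Further in, position 30282976, at 278 bases, was at 42.9%, 23.6% and 35.1% in control and 38.0%, 13.6% and 27.9% in DMM cartilage at 4 weeks. At 12 weeks it was at 35.3%, 33.3% and 45.8% against 24.4%, 34.1% and 44.9%. Of the 35 cytosines of Lrrc15 at 12 weeks, 8 were lower in every DMM library than in every control library, against 5.57% of all cytosines, and none was higher. The window of 30 bases printed above holds 3 of these 8 among its 4 CpGs. Position 30283207 was at 20.7%, 34.3% and 23.1% in control and 11%, 13.0% and 11.5% in DMM cartilage, position 30283210 at 17.2%, 17.1% and 19.2% against 8.33%, 8.70% and 7.69%, and position 30283223 at 24.1%, 14.3% and 23.1% against 6.94%, 13.0% and 7.69%. The differences were -15.2, -9.51 and -11.7 points at 23 to 73 reads and were not called. Without control replicate 2, which had the 34.3%, and DMM replicate 1 they were -9.57, -10.0 and -13.4 points. At 4 weeks the same 3 cytosines overlapped between limbs and differed by 5.93, 0.88 and 2.27 points. Neighbouring cytosines of 1 read fragment share their reads and are not independent.

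For 5hmC the BS file of 12-week DMM replicate 1 carries another replicate's number in its name, so its match with the oxBS library of that sample rests on the deposited record. At 12 weeks Fap alone was separate, at 2.19%, 2.40% and 7.25% in control and 11.2%, 14.4% and 8.85% in DMM cartilage (7.56 points, exact permutation p = 0.1), against 12.4% of all genes with more 5hmC in every DMM library and 2.38% with less. The subtraction uses the same oxBS percentages that gave the 5mC of Fap, over 19 cytosines for both marks. Its differences in 5hmC and in 5mC are therefore not independent. Mean 5hmC over all cytosines covered in every 12-week library was also higher in every DMM library, at 1.77% to 2.35% against 1.43% to 1.63% in control. Without control replicate 2 and DMM replicate 1, 3 members were higher and 1 lower in every DMM library, against 27% and 10.4% of all genes. The difference of Fap was 6.93 points without control replicate 2 and DMM replicate 1, and it was lost as a separation when reads were pooled over its cytosines. No member was separate at 4 weeks, against 6.56% of all genes higher and 2.19% lower. The other 8 genes differed by -2.01 to 5.37 points over both weeks, with overlapping limbs. Cthrc1 had the 5.37 points at 12 weeks, where 1 DMM library was at 12.1% and the others at 0.901% and 3.01%. Its control libraries were at -3.58%, 1.70% and 1.80% over 11 cytosines, as the subtraction of the oxBS from the BS percentage can go below 0.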

How the data were processed

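The authors counted reads per RefSeq transcript (GRCm38.p3) after trimming with FLEXBAR and alignment with STAR, using featureCounts, and deposited the count tables, 1 per library, without normalization. The labels describe a poly(A) library kit, and the methods SMART-Seq v4 with Nextera XT. The methylation files hold, as deposited, the percentage of unconverted reads and the coverage of each cytosine with at least 10 reads, and the submitters' processing notes name Bismark. The study's own comparisons used DESeq2 and methylKit.

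From the deposited counts, log2 fold changes, SEs and adjusted p-values (Benjamini-Hochberg over all transcripts) came from edgeR 4.0.16 (TMM, filterByExpr, quasi-likelihood F test) in R 4.3.3, per week for the limbs and over all 12 libraries for the weeks, with DESeq2 1.42.0 as an alternative. Counts that could belong to several transcripts of a gene or to overlapping genes were taken as the files give them. CPM is the counts-per-million value after TMM normalization, with the library sizes and factors of the fit of all 12 libraries. 5mC was tested per cytosine on read counts pooled over libraries, and as the mean over a gene's cytosines and 5 kb on either side, in genes with at least 5 cytosines. 5hmC is the BS minus the oxBS percentage. The p-values of the RNA fits and of the permutation test rest on the spread between pools of 3 knees. Those per cytosine come from pooled reads and do not measure that spread. Depth was 27706547 to 62737656 counts per RNA library and a median of 19 to 102 reads per cytosine. Both scripts for tests across features were tested on simulated data. The simulated cytosines had no spread between libraries beyond the drawing of reads, so that check cannot speak for data with such spread.

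The members and lists were chosen with earlier results of these data known. The genes named were the 10 members, up to 12 activation list genes called by DESeq2 in either week with the largest change at 4 weeks, further list genes that are said to have been singled out after their values were seen, the 5 genes most like Lrrc15, and the called cytosines with the 3 largest differences of each week and the Lrrc15 start. The alternatives tried were DESeq2, other filters, 1 transcript per gene, the replicate block, other coverage and difference limits, an overdispersion correction, reads pooled over cytosines and leaving out each library. Leaving out the 2 DNA samples that share a title style was chosen after seeing the data.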

Additional observations from a re-analysis of the deposited data

How the results depend on the processing

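No value past its threshold changed sign under an alternative. The members' RNA differences between limbs kept their sign, except Tnc without control replicate 1 (-0.06) and Aebp1 without control replicate 3 (-0.06), both at 4 weeks. Values that had not passed changed sign in the other comparisons too. Without the 12-week DNA samples that share a title style, Lrrc17 went from 0.40 to -3.84 points of 5mC, and in 5hmC Lrrc15 went to -1.02, Lrrc17 to 1.435, Tnc to 0.437 and Aebp1 to 0.418 points. At 4 weeks edgeR called 1 of the 10 genes, against 8 with DESeq2, 0 with at least 10 counts in every library, 0 with 1 transcript per gene, 3 with all 12 libraries in 1 fit and 0 to 4 when 1 library was left out, with 9 to 10 genes positive. At 12 weeks it called 0, against 5 with DESeq2 and 0 to 3 when 1 library was left out (1 without control replicate 2, 3 without DMM replicate 3), with 9 positive. Of the activation list 0 genes were called at 4 weeks, against 11 with DESeq2, 1 with all 12 libraries in 1 fit and 0 to 1 with 1 library left out, and 0 at 12 weeks, against 19 with DESeq2, 3 with no filter on low counts and 0 to 12 with 1 library left out (12 without control replicate 2), with 44 to 53 and 50 to 56 genes positive. Between weeks, control cartilage had 1 call, against 3 with DESeq2 and 0 to 4 with 1 library left out, with 0 to 2 genes positive, and DMM cartilage had 6, against 4 to 7, with 0 to 1 positive. The interaction had 0 calls throughout the leave-one-out fits, and 1 to 4 genes were positive in them against 2. For 5mC, cytosines called were 0 at 4 weeks, against 0 to 6 with 1 library left out (6 without control replicate 2), and 6 at 12 weeks, against 5 to 12, with 15 at a difference of 20 points and 0 with the overdispersion correction. Genes with less 5mC in every DMM library were 1 at 4 weeks, against 0 with reads pooled over cytosines and 1 to 5 with 1 library left out, and 6 at 12 weeks, against 6 to 7. Genes with more 5hmC in every DMM library were 0 at 4 weeks, against 0 to 3, and 1 at 12 weeks, against 2 at a coverage of 20 reads, 0 with pooled reads, 3 without the samples that share a title style (where 1 more had less) and 1 to 2 with 1 library left out. The cause of these shifts was not tested. Lrrc15 in control cartilage and the Thy1 cytosine rest on low counts or reads, and the part of depth in their values was not tested.

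With the replicate number as a replicate block, 4 member genes were called in edgeR at 4 weeks and 1 at 12 weeks, 4 and 19 genes of the activation list were called, 1 member was positive in the interaction, and 5 genes differed in the same direction in every numbered pair of 5mC libraries at 4 weeks. The numbers were not taken as pairs: the deviations of same-numbered libraries from their group means correlated at 0.37, -0.359 and 0.085 at 4 weeks and -0.585, 0.285 and -0.268 at 12 weeks, and the labels tie no pools to the same animals.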
